A study of Mus musculus with 9 samples.

Results

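The 37 genes of the mouse mitochondrial genome, taken as every row of the deposited table whose gene name starts with mt-, are described here among 29237 genes in all. They comprise 13 messenger RNA genes, 22 transfer RNA genes and 2 ribosomal RNA genes. The RNA came from the heart of wild-type C57BL/6 animals aged 8 to 12 weeks, in groups named TPTN, DOX and control by the labels, with 3 libraries each. The design text names a TPTN treated group, a doxorubicin model group and a normal group, and doxorubicin is an anthracycline cancer drug with known toxicity to the heart. Whether the TPTN mice were also given doxorubicin, what TPTN is, the dose and the day of sampling are not in the labels. Strain, genotype and age were the same in all 3 groups. Nothing beyond the numbers in the labels says that replicates were separate animals, so p-values measure the spread between these samples.

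The mitochondrial genome is a small circle read from both of its strands into long transcripts. Messenger and ribosomal RNAs lie between transfer RNAs, which fold within the long transcript and are cut out of it, and this releases the other RNAs. The 13 messenger RNAs encode subunits of respiratory chain complexes I, III and IV and of ATP synthase (complex V), the transfer RNAs read the mitochondrial code, and the 2 ribosomal RNAs form the core of the mitochondrial ribosome. Cardiac muscle is rich in mitochondria, and their transcripts are among the most abundant of the heart. All 37 genes lie on chromosome M of GRCm38, 28 of them in the direction of the heavy-strand transcript and 9 in that of the light-strand transcript (mt-Nd6 and 8 transfer RNA genes).

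The sequences below are those of the 7 transfer RNA genes that passed the threshold when DOX was set against control, with 2 neighbours of mt-Th. They come from the GENCODE M21 transcripts (GRCm38), run 5′ to 3′ as the RNA would, with T for U, and the capitals mark the anticodon, located by its amino acid, the mitochondrial code and the pairing of the stem around it. The CCA end is not encoded in these genes and is added to the cleaved RNA. They are mt-Tl1 at chrM:2676-2750 (leucine, plus strand), mt-Tq at chrM:3772-3842 (glutamine, minus), mt-Tm at chrM:3845-3913 (methionine, plus), mt-Tw at chrM:4950-5016 (tryptophan, plus), mt-Ty at chrM:5260-5326 (tyrosine, minus), mt-Te at chrM:14071-14139 (glutamate, minus), mt-Th at chrM:11546-11612 (histidine, plus), mt-Ts2 at chrM:11613-11671 (serine, plus) and mt-Tl2 at chrM:11671-11741 (leucine, plus).
mt-Tl1: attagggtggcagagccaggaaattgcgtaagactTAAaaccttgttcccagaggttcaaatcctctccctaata
mt-Tq: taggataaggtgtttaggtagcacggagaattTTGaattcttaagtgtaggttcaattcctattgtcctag
mt-Tm: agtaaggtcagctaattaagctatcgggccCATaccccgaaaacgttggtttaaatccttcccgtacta
mt-Tw: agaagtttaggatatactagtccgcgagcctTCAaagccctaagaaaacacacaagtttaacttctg
mt-Ty: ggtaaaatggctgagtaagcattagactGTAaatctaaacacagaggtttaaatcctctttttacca
mt-Te: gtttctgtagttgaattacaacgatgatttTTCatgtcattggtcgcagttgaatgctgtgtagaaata
mt-Th: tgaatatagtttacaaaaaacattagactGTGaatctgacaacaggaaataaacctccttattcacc
mt-Ts2: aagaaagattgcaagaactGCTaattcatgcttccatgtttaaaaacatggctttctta
mt-Tl2: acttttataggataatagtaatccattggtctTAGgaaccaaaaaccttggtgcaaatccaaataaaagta
The last 3 stand side by side: no base separates mt-Th from mt-Ts2, and mt-Ts2 and mt-Tl2 overlap by 1 base. The tryptophan anticodon of mt-Tw starts with T, which in the mitochondrial code lets it read a codon that is a stop elsewhere.

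Overlaps also occur among messenger RNA genes, and they matter here because reads in them cannot be assigned to a single gene. The first 43 bases of mt-Atp6 are also the last of mt-Atp8, on the plus strand at chrM:7927-7969, where the capitals mark the start codon of mt-Atp6 and the stop codon of mt-Atp8.
mt-Atp8 and mt-Atp6: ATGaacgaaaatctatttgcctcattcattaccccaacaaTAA
The pair mt-Nd4l and mt-Nd4 shares 7 bases in the same way, and each pair is carried on a single messenger RNA.

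Values are FPKM, a read abundance divided by transcript length and by the fragments mapped in the library, so levels can be set beside each other per length. A gene was called where the limma adjusted p, over 12500 genes with a mean of at least 0.5 FPKM, was under 0.05, and all 37 mitochondrial genes were tested. Changes are differences of log2(FPKM + 1), which understate the change of genes at low FPKM. The 37 genes made up 48.1 to 48.7% of all FPKM in TPTN, 44.7 to 46.2% in DOX and 49.8 to 50.9% in control, so the FPKM of a mitochondrial gene and of all other genes are tied to each other. In bulk tissue, fewer mitochondria or fewer muscle cells cannot be told apart from less RNA in each. Libraries were made from polyadenylated RNA, and transfer RNA genes of 59 to 75 bases are shorter than a read of 150 bases, so values for transfer and ribosomal RNA genes cannot be read as levels of the mature RNAs. The sources used here do not say whether counting used the strand, although the libraries mark it.

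As to the libraries, rough depth estimates were 19.0 to 21.2 M read pairs in TPTN, 18.6 to 19.0 M in DOX and 23.2 to 24.1 M in control, so every DOX library was shallower than every control library, and the part of depth in the results was not tested. Cardiomyocyte markers were present in every library, with 2342 to 2688 FPKM of Myh6 in TPTN, 2018 to 2461 FPKM in DOX and 2274 to 2438 FPKM in control, and their sum was 15702 to 16475 FPKM in TPTN, 15147 to 17300.4 FPKM in DOX and 14309 to 16052 FPKM in control. Of these 7 markers, Tnnt2, Tnni3 and Myl2 were higher and Ryr2 was lower in every DOX than in every control library, with 18.6 to 27.3 FPKM of Ryr2 in DOX and 32.4 to 36.0 FPKM in control. DOX replicate 1 stood apart by atrial markers, with 539 FPKM of Myl7 and 85.3 FPKM of Sln against at most 0.889 FPKM of Myl7 and 0.0693 FPKM of Sln in the other 8 libraries. The 6 atrial markers summed to 53.5 to 121 FPKM in TPTN, 197 to 2554 FPKM in DOX and 52.2 to 148 FPKM in control. In DOX replicates 2 and 3, Myl7 had 0.764 and 0.737 FPKM and Myl4 had 0.278 and 0.322 FPKM. Control had at most 0.151 FPKM of Myl7 and 0.237 FPKM of Myl4, so these differences lie at very low values. Of the 6 atrial markers, 3 (Nppa, Myl7 and Myl4) were higher in every DOX than in every control library. So were 2 of 4 fibroblast markers (Dcn and Tcf21) and 2 of 3 smooth muscle markers, with 11.2 to 15.6 FPKM of Tagln in DOX and 4.45 to 8.32 FPKM in control and 3.93 to 4.27 FPKM of Myh11 in DOX and 2.42 to 3.33 FPKM in control. None of the 4 endothelial, 4 macrophage, 5 erythroid and 4 adipocyte markers was. Over all genes tested, 17.7% were higher and 5.1% lower in every DOX than in every control library. Summed fibroblast markers had 58.9 to 85.5 FPKM in DOX and 57.4 to 59.1 FPKM in control. Summed smooth muscle markers had 50.2 to 75.2 FPKM in DOX and 32.0 to 73.5 FPKM in control. All TPTN libraries were above all DOX libraries for Ryr2, Kdr and Col1a1, as for 10.4% of all genes tested. They were below for Tnnt2, Tnni3, Myl2, Nppa, Myl4, Bmp10, Dcn, Myh11 and Tagln, as for 14.1%. Values of Bmp10 were near 0 outside DOX replicate 1, at 0.024 and 0.0092 FPKM in DOX and at most 0.0087 FPKM in TPTN. Against control, TPTN was likewise higher for Actc1, Myl2, Kdr, Col1a1, Adgre1, Cd68 and Csf1r (15.2% of all genes) and lower for Ryr2 (6.03%). The part of these cell types in the mitochondrial results was not tested. Without DOX replicate 1 the count of mitochondrial genes lower in DOX than in control was 13, against 12 with it, and 11 of the 12 were among them. Of all genes, 0.458% were called lower without it and 0.4% with it.

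Among the messenger RNA genes, mt-Co1, which encodes the catalytic core of cytochrome c oxidase (complex IV), had the highest level as deposited. Over the 9 libraries its mean was 49555 FPKM, ahead of mt-Co2 at 24866 FPKM, and this order held in all 9 libraries. The complex I gene mt-Nd1 at 21732 FPKM and the complex III gene mt-Cytb at 21652 FPKM did not separate, as mt-Nd1 was the higher in 5 of 9 libraries. Likewise mt-Co3 at 16362 FPKM and mt-Atp6 at 16217 FPKM were in that order in 6 of 9 libraries. The complex I genes mt-Nd6, mt-Nd4l, mt-Nd5 and mt-Nd3 were lowest in the deposited values, with means of 9910, 8877, 8207 and 5051 FPKM. This order is uncertain, because 7 of the 13 genes share reads with pseudogenes on chromosome 1. With the fragments of the copy added, per length of the mitochondrial gene, mt-Nd4l had 17411 FPKM and mt-Nd3 9988 FPKM, so that mt-Nd5 was the lowest. On the same count mt-Atp6 at 32975 FPKM and mt-Co3 at 32438 FPKM passed mt-Nd1 and mt-Cytb, while mt-Co1 at 55259 FPKM and mt-Co2 at 49103 FPKM kept the first places.

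**Figure D1:**
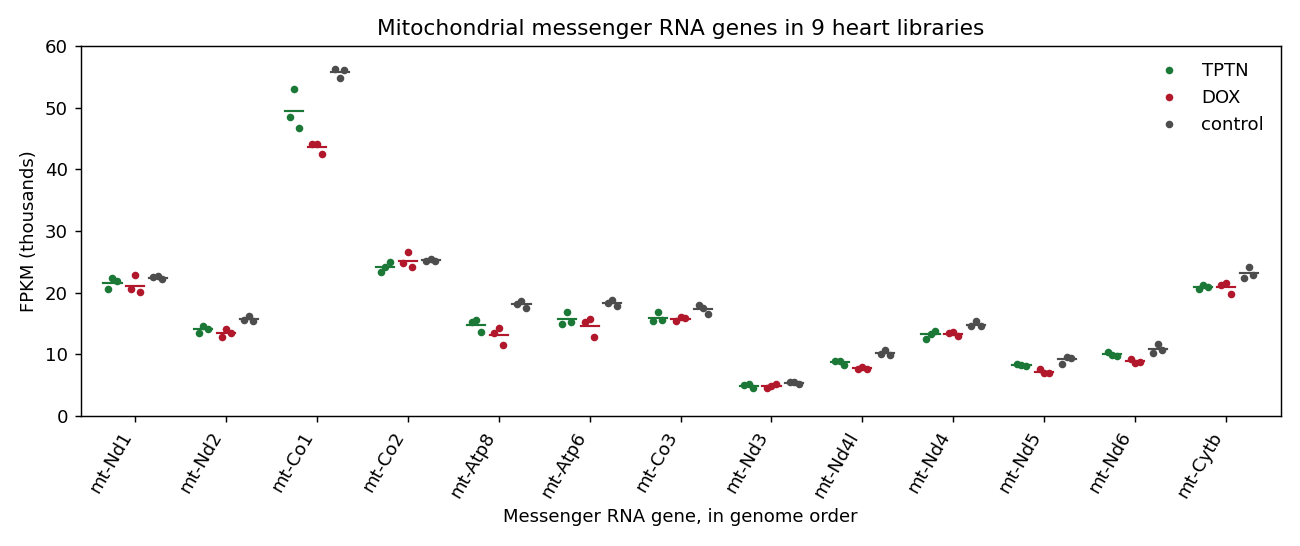
Level of each of the 13 messenger RNA genes in FPKM, for TPTN, DOX and control. Each library has a point, and a bar marks the mean of each group of 3 libraries. The DOX points lie under all control points for 11 genes, and mt-Co1 is the highest gene in every library.

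The question asked by setting DOX against control is which heart transcripts differ in the doxorubicin model. Of the 13 messenger RNA genes, 5 fell and none rose, against calls of lower for 0.4% of all genes tested, of higher for 2.23% and of either for 2.63%. All 13 had a negative log2 change, with a median of -0.23 against 0.04 over all genes tested. The median was 0.00 under quantile normalization and 0.01 with scaling to the summed FPKM of the 13 genes themselves. Scaling to their own sum centres these genes near 0 by construction. Quantile normalization holds genes that keep their ranks at equal values. Neither median therefore bears on a shift shared by the class. Those that fell were mt-Co1, mt-Atp8, mt-Nd4l, mt-Nd5 and mt-Nd6, by 0.29 to 0.47 on the log2 scale. Calls were made for 3 of 7 complex I genes, 1 of 3 complex IV genes and 1 of 2 complex V genes, and not for mt-Cytb of complex III. Of all calls 84.8% were higher, a share that was 61.3% with median-ratio scaling, 52.8% with quantile normalization, 22.6% with scaling to the FPKM outside mitochondrial genes and their copies, and 99.1% with scaling to the summed mitochondrial messenger RNA.

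The catalytic subunit gene mt-Co1 had 44065, 44080.1 and 42523 FPKM in DOX, against 56255, 54782 and 56132 FPKM in control (log2 change -0.36, SE 0.05, limma adjusted p = 0.0158). All 3 DOX libraries lay below the lowest control library. For mt-Co2, the subunit of the same enzyme that takes electrons from cytochrome c, the libraries had 24729, 26605 and 24169 FPKM in DOX, against 25178, 25520.0 and 25098 FPKM in control (log2 change -0.01, SE 0.05, limma adjusted p = 0.968). Here the groups overlapped, with DOX replicate 2 above every control library. The structural subunit mt-Co3 had 15370.1 to 16117 FPKM in DOX and 16607 to 17973 FPKM in control, without overlap but not past the threshold (log2 change -0.13, SE 0.06, limma adjusted p = 0.238).

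The ratio of mt-Co1 to mt-Co2 uses no library scaling. It was 2.07, 2.20 and 1.87 in TPTN, 1.78, 1.66 and 1.76 in DOX and 2.23, 2.15 and 2.24 in control. Every DOX value was below every TPTN and control value. This ratio was singled out after the levels were seen, and such a ratio shows unequal change and not that either gene stayed the same. As a share of the summed FPKM of the 13 genes, mt-Co1 took 21.5 to 23% in TPTN, 20.3 to 21.1% in DOX and 21.8 to 23.1% in control.

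For ATP synthase, mt-Atp8, a short membrane subunit, had 13525, 14217 and 11553 FPKM in DOX, against 18134, 18608 and 17564 FPKM in control (log2 change -0.47, SE 0.08, limma adjusted p = 0.02). The partner on the same RNA, mt-Atp6, which forms part of the proton path, had 15259, 15793 and 12801 FPKM in DOX, against 18270.3, 18854 and 17837 FPKM in control (log2 change -0.33, SE 0.08, limma adjusted p = 0.0551). Neither gene's DOX libraries overlapped control, and DOX replicate 3 was the lowest for both. Their ratio, mt-Atp8 over mt-Atp6, was 0.885 to 1.01 in TPTN, 0.886 to 0.902 in DOX and 0.985 to 0.993 in control.

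In complex I, the NADH dehydrogenase, the small membrane subunit gene mt-Nd4l had 7697, 7873 and 7592 FPKM in DOX, against 10048, 10734 and 9886 FPKM in control (log2 change -0.40, SE 0.05, limma adjusted p = 0.015). Its partner mt-Nd4, a proton-pumping subunit, had 12915 to 13621 FPKM in DOX and 14543 to 15352 FPKM in control (log2 change -0.15, SE 0.06, limma adjusted p = 0.172). The ratio mt-Nd4l over mt-Nd4 was 0.601 to 0.714 in TPTN, 0.572 to 0.588 in DOX and 0.677 to 0.699 in control. Thus mt-Atp8 and mt-Nd4l, the short partners of the pairs carried on a single messenger RNA, had a lower share of their pair in all DOX than in all control libraries. This description was also made after the values were seen.

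The largest proton-pumping subunit gene, mt-Nd5, had 7541, 7038 and 6979 FPKM in DOX, against 8488, 9558 and 9461 FPKM in control (log2 change -0.35, SE 0.06, limma adjusted p = 0.02). On the opposite strand, mt-Nd6, the single protein gene of the light-strand transcript, had 9308, 8561 and 8767 FPKM in DOX, against 10202, 11688 and 10735 FPKM in control (log2 change -0.29, SE 0.06, limma adjusted p = 0.0387). The groups did not overlap for either gene, and their ratio, mt-Nd6 over mt-Nd5, was 1.22 to 1.26 in DOX and 1.14 to 1.22 in control. Because mt-Nd6 lies opposite the heavy-strand transcript and overlaps mt-Nd5 by 14 bases, its reads cannot be told from antisense ones if strand was not used.

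The remaining complex I and III genes were not called. The quinone-site gene mt-Nd1 had 20049 to 22796 FPKM in DOX and 22155 to 22634 FPKM in control, which overlapped (limma adjusted p = 0.485). The pumping subunit gene mt-Nd2 had 12888 to 14107 FPKM in DOX and 15373 to 16295 FPKM in control (log2 change -0.23, SE 0.06, limma adjusted p = 0.0596). The small subunit gene mt-Nd3 had 4536 to 5163 FPKM in DOX and 5202 to 5518 FPKM in control (limma adjusted p = 0.257). All 3 DOX libraries lay below control for mt-Nd2 and mt-Nd3. Cytochrome b, encoded by mt-Cytb, was likewise without overlap, at 19839 to 21641 FPKM in DOX and 22357 to 24224 FPKM in control (limma adjusted p = 0.178).

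**Figure D2:**
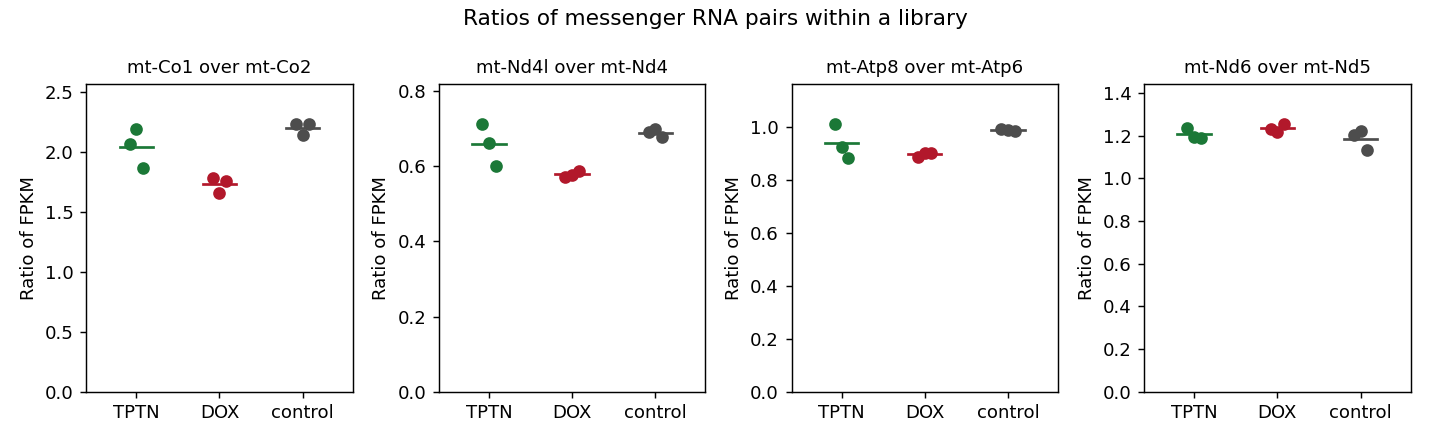
Ratios between mitochondrial messenger RNA genes in each library, with a point per library and a bar at the mean of each group of 3, for TPTN, DOX and control. The ratios mt-Co1 over mt-Co2, mt-Nd4l over mt-Nd4 and mt-Atp8 over mt-Atp6 were lower in every DOX library than in every control library. The ratio mt-Nd6 over mt-Nd5 overlapped between DOX and control.

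Transfer RNA genes covered a far wider range of levels. The highest means over the 9 libraries were 3735 FPKM for mt-Te and 3641 FPKM for mt-Ts1, a serine transfer RNA gene, and the lowest were 15.0 FPKM for mt-Tk, of lysine, and 9.94 FPKM for mt-Tf, of phenylalanine. A gap separated mt-Tw at 435 FPKM from mt-Tr, of arginine, at 138 FPKM. Above it stood 12 genes, namely all 8 of the light-strand transcript and mt-Tl1, mt-Ti, mt-Tm and mt-Tw of the heavy-strand transcript. Below it stood 10 genes, all of the heavy-strand transcript. A split at 250 FPKM was made after these levels were seen.

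**Figure D3:**
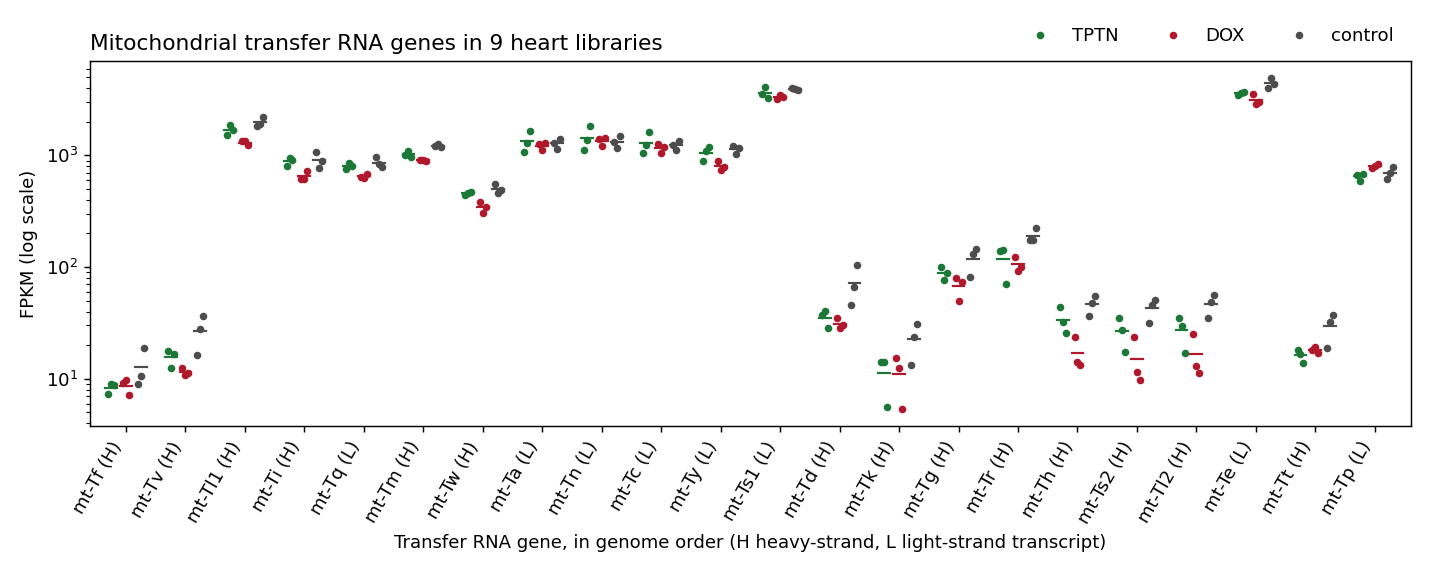
Level of each of the 22 transfer RNA genes in FPKM on a log axis, in genome order. Each library of TPTN, DOX and control has a point, and a bar marks the mean of each group of 3 libraries. All genes of the light-strand transcript and mt-Tl1, mt-Ti, mt-Tm and mt-Tw lie above 250 FPKM, and the others lie below it.

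In DOX, 7 of the 22 transfer RNA genes fell against control and none rose, with a median log2 change of -0.53. Over all genes tested, 0.4% were called lower and 2.23% higher, and the median log2 change was 0.04. A negative change was found for 20 of the 22 transfer RNA genes, the exceptions being mt-Tp at 0.20 and mt-Tn at 0.03. All 14 genes of the heavy-strand transcript were negative, with a median of -0.82 and 4 called, and 6 of the 8 of the light-strand transcript were, with a median of -0.17 and 3 called. The median of the transfer RNA genes stayed negative under each of the other scalings, between -0.69 and -0.29. In all, 26 of the 37 mitochondrial genes had every DOX library below every control library (11 messenger, 15 transfer and 0 ribosomal), against 5.1% of all genes tested.

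Of the 7 that fell, mt-Tl1, mt-Tm and mt-Tw belong to the heavy-strand transcript and lie beside mt-Nd1 and mt-Nd2. Directly after mt-Rnr2, the leucine gene mt-Tl1 had 1344, 1333 and 1227 FPKM in DOX, against 1828, 1910.2 and 2189 FPKM in control (log2 change -0.60, SE 0.09, limma adjusted p = 0.0158). Before mt-Nd2, the methionine gene mt-Tm, which serves both initiation and elongation in mitochondria, had 911, 918 and 883 FPKM in DOX, against 1208, 1259.6 and 1183 FPKM in control (log2 change -0.43, SE 0.06, limma adjusted p = 0.015). Behind mt-Nd2, the tryptophan gene mt-Tw had 381, 304 and 347 FPKM in DOX, against 559, 458 and 493 FPKM in control (log2 change -0.55, SE 0.09, limma adjusted p = 0.02). Each of these heavy-strand genes had all DOX libraries below all control libraries.

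Among the light-strand genes, mt-Tq, of glutamine, had 646, 634 and 678 FPKM in DOX, against 966, 831 and 789.9 FPKM in control (log2 change -0.40, SE 0.08, limma adjusted p = 0.0327). The tyrosine gene mt-Ty had 887, 733 and 789.6 FPKM in DOX, against 1209.7, 1039 and 1172 FPKM in control (log2 change -0.51, SE 0.11, limma adjusted p = 0.044). Beside mt-Nd6, the glutamate gene mt-Te had 3558, 2898 and 3035 FPKM in DOX, against 4028, 4959 and 4324 FPKM in control (log2 change -0.49, SE 0.09, limma adjusted p = 0.0261). These groups did not overlap either. The 3 neighbours of mt-Ty on the same strand, mt-Ta, mt-Tn and mt-Tc (alanine, asparagine and cysteine), were not called and overlapped between the groups, with log2 changes of -0.06, 0.03 and -0.09 and limma adjusted p of 0.878, 0.961 and 0.801.

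The cluster between mt-Nd4 and mt-Nd5, whose sequences are printed above, had the largest changes of the 37 genes and low levels. The histidine gene mt-Th had 23.8, 14.3 and 13.3 FPKM in DOX, against 36.7, 47.7 and 54.7 FPKM in control (log2 change -1.41, SE 0.27, limma adjusted p = 0.0452). Its neighbours were not past the threshold, with 9.83 to 23.5 FPKM in DOX and 31.9 to 50.7 FPKM in control for mt-Ts2 (log2 change -1.52, SE 0.39, limma adjusted p = 0.0978). For mt-Tl2 the values were 11.3 to 25.4 FPKM in DOX and 35.2 to 56.1 FPKM in control (log2 change -1.50, SE 0.38, limma adjusted p = 0.0978). The 3 genes did not overlap between the groups, and in each of them DOX replicate 1 was the highest of the DOX libraries. Adjacent genes this short can share fragments, so these are not 3 separate measurements.

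Standard errors followed level. They ran from 0.22 to 0.52 for the 10 genes under 250 FPKM, of which 1 was called at a median change of -1.04, and from 0.06 to 0.17 for the 12 genes above, of which 6 were called at a median of -0.41. Genes with large negative changes that missed the threshold included mt-Td, of aspartate (log2 change -1.12, SE 0.28, limma adjusted p = 0.0959), and mt-Tv, which lies between the ribosomal RNA genes (log2 change -1.08, SE 0.27, limma adjusted p = 0.0867). The lowest genes were not called, with 5.33 to 15.2 FPKM in DOX and 13.3 to 30.9 FPKM in control for mt-Tk and 7.17 to 9.77 FPKM in DOX and 8.94 to 18.9 FPKM in control for mt-Tf. The proline gene mt-Tp, next to the control region, had 764 to 834 FPKM in DOX and 610.1 to 786 FPKM in control (limma adjusted p = 0.292).

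**Figure D4:**
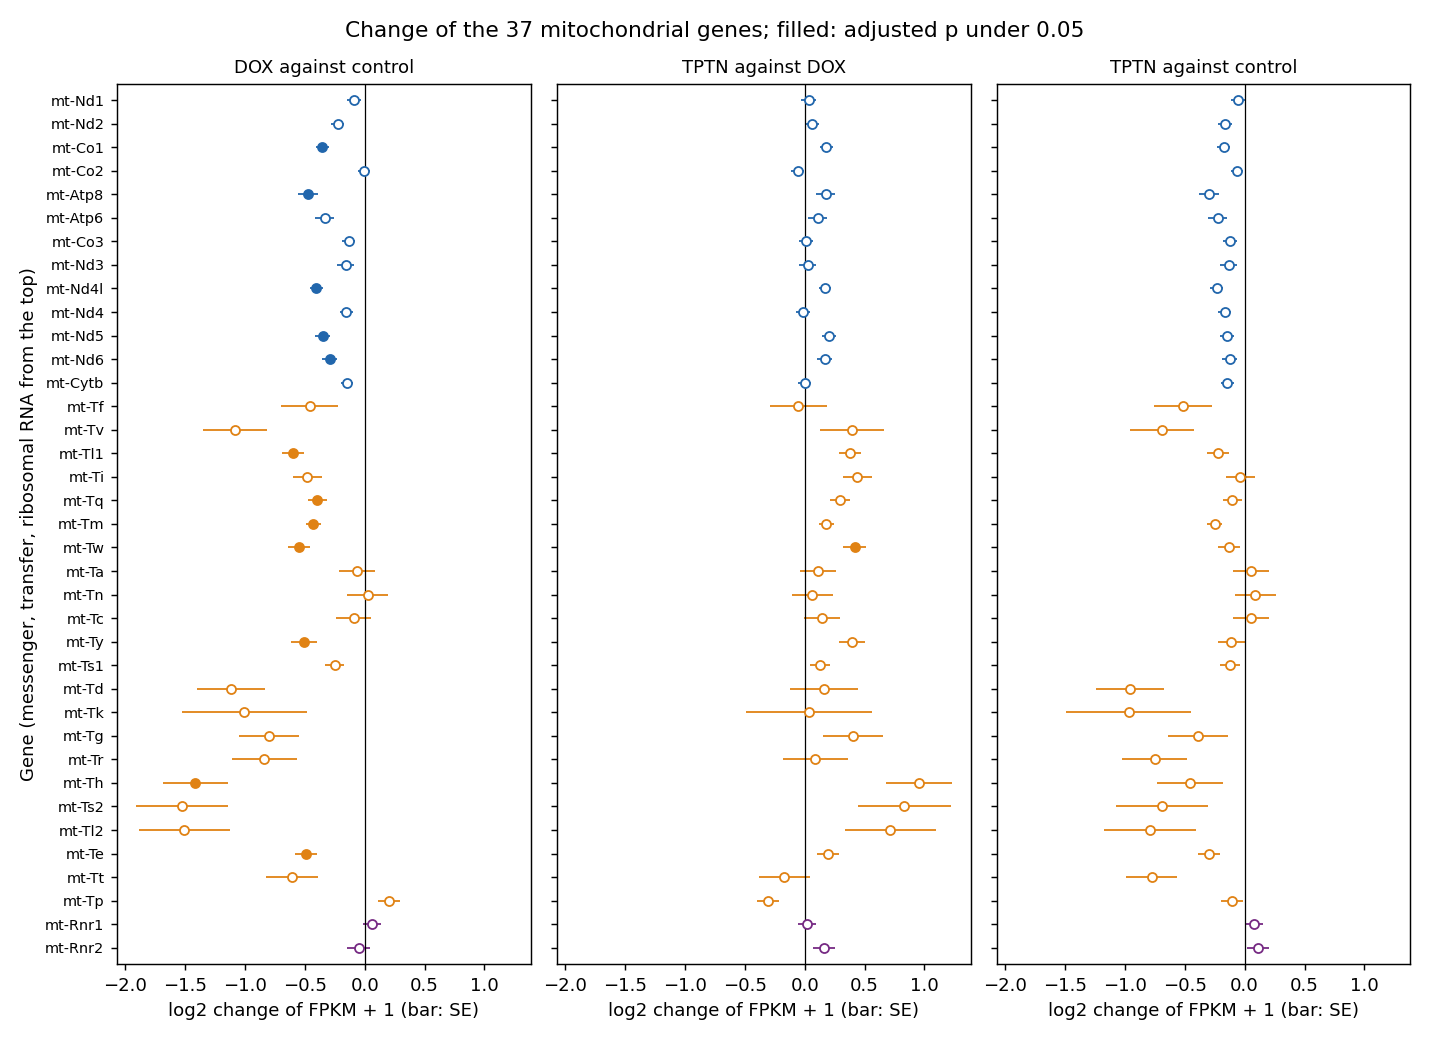
Log2 change of each of the 37 genes for DOX against control, TPTN against DOX and TPTN against control. Messenger, transfer and ribosomal RNA genes follow each other from the top, each class in genome order. Bars show 1 standard error from the limma fit of 9 libraries, and filled points mark genes with limma adjusted p under 0.05. For DOX against control 34 of 37 points lie below 0, and 12 of them are filled.

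The ribosomal RNA genes were not called and their groups overlapped. The small subunit RNA gene mt-Rnr1 (chrM:70-1024) had 2088, 1981 and 2258 FPKM in DOX, against 1963, 1949.7 and 2146 FPKM in control (log2 change 0.06, SE 0.07, limma adjusted p = 0.713). The large subunit RNA gene mt-Rnr2 (chrM:1094-2675) had 2944, 2852 and 3199 FPKM in DOX, against 3479, 2757 and 3113 FPKM in control (log2 change -0.05, SE 0.09, limma adjusted p = 0.825). Their adjusted p-values do not show that levels were equal. A cytosolic ribosomal RNA row, annotated in the table as related to 18S RNA, summed with a pseudogene row of the same name to 1353 to 3675 FPKM in TPTN, 3381 to 5731 FPKM in DOX and 1092 to 2411 FPKM in control. That sum was higher in all DOX than in all control libraries, and its part in the values of mt-Rnr1 and mt-Rnr2 was not tested.

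**Figure D5:**
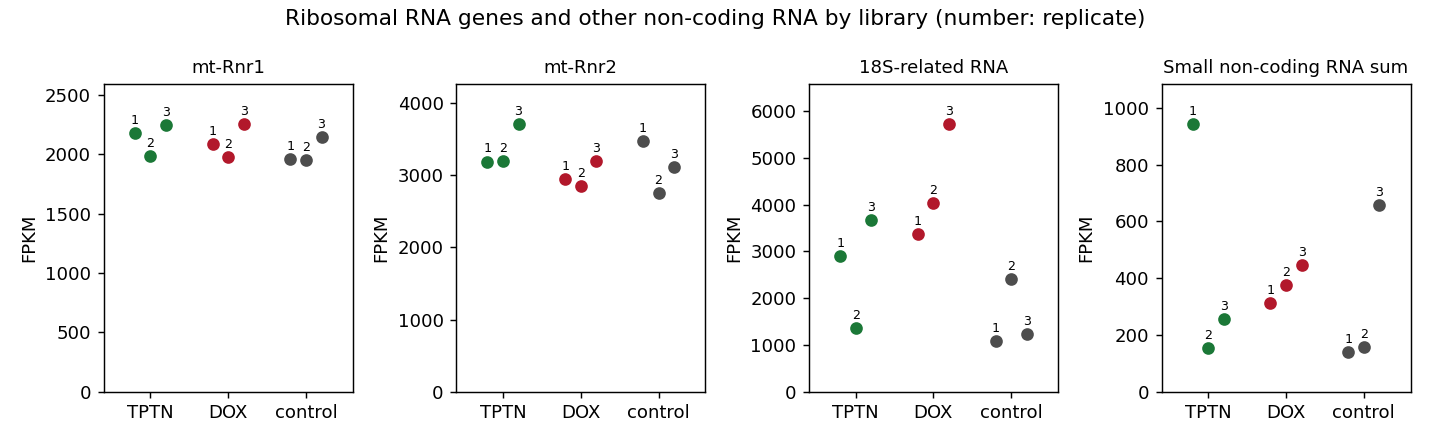
FPKM of mt-Rnr1, mt-Rnr2, the rows related to 18S RNA and the sum of small non-coding RNA genes, with a point per library and its replicate number, for TPTN, DOX and control. The mitochondrial ribosomal RNA genes overlap between DOX and control, while the rows related to 18S RNA do not.

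Summed by class, messenger RNA genes had 217211, 230286 and 217325 FPKM in TPTN, 210185, 217256 and 201675 FPKM in DOX and 245066, 251234 and 243480.0 FPKM in control. Transfer RNA genes summed to 16839, 19001 and 19029 FPKM in TPTN, 16577, 15360.4 and 16014 FPKM in DOX and 19854, 19928 and 20692 FPKM in control. Both sums were lower in every DOX and every TPTN library than in every control library. Ribosomal RNA genes summed to 5368, 5182 and 5962 FPKM in TPTN, 5032, 4833 and 5457 FPKM in DOX and 5442, 4707 and 5259.6 FPKM in control, with overlap among all 3 groups. Of the mitochondrial FPKM, messenger RNA genes took 89.7 to 91.5%, transfer RNA genes 6.47 to 7.85% and ribosomal RNA genes 1.71 to 2.46% over the 9 libraries.

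Scaling all FPKM to the summed FPKM of the 13 messenger RNA genes gives changes relative to mitochondrial messenger RNA, and it moved the median of all genes tested to 0.21. Relative to that median, the median of messenger RNA genes was -0.20, that of transfer RNA genes -0.50 and that of ribosomal RNA genes 0.03 in DOX against control. On this scale 4 mitochondrial genes were called higher and 10 lower, beside 37.9% of all genes called higher and 0.328% lower. Those higher were mt-Co2 (log2 change 0.23, SE 0.05, limma adjusted p = 0.00726), mt-Nd1 (log2 change 0.14, SE 0.05, limma adjusted p = 0.0412), mt-Rnr1 (log2 change 0.30, SE 0.09, limma adjusted p = 0.0324) and mt-Tp (log2 change 0.44, SE 0.11, limma adjusted p = 0.0131), of which mt-Nd1 lay under the median of all genes. Of the 10 lower, mt-Atp8 and mt-Nd4l are messenger RNA genes and 8 are transfer RNA genes, with mt-Tl1 at a log2 change of -0.36. Because this scaling shifts all genes alike, 10 of the 37 genes had the other sign on it, mt-Co2 and mt-Nd1 among them. Before this scaling, the log2 changes of the 10 ran from -0.23 (mt-Nd2) to -0.01 (mt-Co2). The genes mt-Atp8, mt-Nd4l and mt-Tl1 were called lower on both scales.

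The counts of DOX against control rested on a few libraries and on the genes tested. The 12 calls became 0 when control replicate 2, control replicate 3 or DOX replicate 2 was left out, or with no filter on low values, settings in which only 2 to 6 of all genes were called higher and 0 to 2 lower, and in which 21 to 26 of the 37 still had an unadjusted limma p under 0.05, beside 9.65 to 15.0% of all genes. With all libraries and the filter, 27 of the 37 had one, beside 2256 of the 12500 genes tested. The 12 calls became 5 without DOX replicate 3, 6 under quantile normalization and 20 with scaling to the FPKM outside mitochondrial genes and their copies. Beside these, 0.136%, 0.544% and 1.67% of all genes were called lower.

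Setting TPTN against DOX asks which transcripts differ in the treated group from the model. It uses the same DOX libraries as DOX against control. A gene picked because it was low in these libraries is thereby more likely to be higher in TPTN, so the 2 comparisons are not independent. A single mitochondrial gene passed the threshold: mt-Tw was higher, with 440.5, 461 and 473 FPKM in TPTN, against 381, 304 and 347 FPKM in DOX (log2 change 0.42, SE 0.09, limma adjusted p = 0.0403). All TPTN libraries lay above all DOX libraries for it. Over all genes tested 0.792% were called higher and 2.46% lower (3.26% either way), so 24.3% of calls were higher, a share that was 35.7% with median-ratio scaling, 51.4% with quantile normalization, 52.4% with scaling to the FPKM outside mitochondrial genes, 80.8% with their copies also left out and 8.99% with scaling to the mitochondrial messenger RNA sum. The median log2 change was 0.06 for messenger, 0.19 for transfer and 0.09 for ribosomal RNA genes, against -0.01 over all genes. The messenger RNA median was 0.00 under quantile normalization and -0.02 when scaled to its own sum. As above, these scalings do not bear on a shift shared by the class. The count of 1 was 10 with scaling to the FPKM outside mitochondrial genes and their copies, beside 4.34% of all genes called higher and 1.03% lower. It was 0 without DOX replicate 2 or 3, without any single TPTN replicate or without control replicate 3. It was 2 without DOX replicate 1 or control replicate 2 and 3 without control replicate 1, beside 0.856 to 1.33% of all genes called higher.

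Every TPTN library was above every DOX library for 11 mitochondrial genes, against 10.4% of all genes tested, and below for 1, mt-Tp, against 14.1%. The 11 were mt-Co1, mt-Nd4l, mt-Nd5 and mt-Nd6, and the transfer RNA genes mt-Tw, mt-Tl1, mt-Ti, mt-Tm, mt-Tq, mt-Ty and mt-Th. All but mt-Ti were among the genes called lower in DOX against control, which used the same DOX libraries. In TPTN against DOX, none of the 11 other than mt-Tw was called. The nearest to the threshold was mt-Tl1, with 1521, 1888 and 1675 FPKM in TPTN, against 1344, 1333 and 1227 FPKM in DOX (log2 change 0.38, SE 0.09, limma adjusted p = 0.0507). For mt-Co1 the values were 48502, 53033 and 46624 FPKM in TPTN, against 44065, 44080.1 and 42523 FPKM in DOX (log2 change 0.18, SE 0.05, limma adjusted p = 0.0988). For mt-Th they were 43.8, 32.0 and 25.6 FPKM in TPTN, against 23.8, 14.3 and 13.3 FPKM in DOX (log2 change 0.95, SE 0.27, limma adjusted p = 0.107), where TPTN replicate 1 was the highest and replicate 3 the lowest of its group. At an unadjusted limma p under 0.05 there were 12 mitochondrial genes, beside 20.6% of all genes tested.

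The other messenger RNA genes that fell in DOX had, in TPTN, 8888, 8857 and 8319.5 FPKM of mt-Nd4l, 8377, 8267 and 8156 FPKM of mt-Nd5 and 10359.9, 9869 and 9699 FPKM of mt-Nd6, with DOX values as given above. Limma adjusted p against DOX was 0.107 for mt-Nd4l, 0.0914 for mt-Nd5 and 0.16 for mt-Nd6. Values of mt-Atp8, at 15180.2, 15532 and 13547 FPKM in TPTN, overlapped with DOX (log2 change 0.17, SE 0.08, limma adjusted p = 0.252). The transfer RNA genes mt-Tm, mt-Tq, mt-Ty and mt-Te had 962 to 1099.6, 756 to 847, 893 to 1191 and 3489 to 3677 FPKM in TPTN, and only mt-Te among these 4 overlapped with DOX.

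Ribosomal RNA genes showed no call between these groups. In TPTN, mt-Rnr1 had 2178, 1982 and 2250.1 FPKM and mt-Rnr2 had 3189.5, 3199 and 3712 FPKM, which overlapped with DOX and with control.

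TPTN was also set against control, with the same control libraries as in DOX against control and the same TPTN libraries as in TPTN against DOX. None of the 37 genes was called by limma, against 0.336% of all genes called higher and 0.384% lower (0.72% either way), while 15 had an unadjusted p under 0.05, beside 13.1% of all genes tested. Of all calls 46.7% were higher, a share that was 36.6% with median-ratio scaling, 62.1% with scaling to the FPKM outside mitochondrial genes and 94.4% with scaling to the mitochondrial messenger RNA sum. Medians were -0.15 for messenger, -0.27 for transfer and 0.10 for ribosomal RNA genes, against 0.04 over all genes. The messenger RNA median was 0.00 under quantile normalization and 0.01 when scaled to its own sum, scalings that again do not bear on a shift shared by the class. Every TPTN library was below every control library for 17 genes (10 messenger and 7 transfer), against 6.03% of all genes tested. Among the messenger RNA genes, mt-Co2 was one of the 10, at 23423 to 24929 FPKM in TPTN and 25098 to 25520.0 FPKM in control, and mt-Nd6 was not. With mt-Atp8 the log2 change was -0.30 (limma adjusted p = 0.139) and with mt-Co1 -0.18 (limma adjusted p = 0.189). Leaving out control replicate 1 gave 3 genes called lower, beside 0.488% of all genes, and leaving out any other library gave 0.

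Part of the mitochondrial signal shares sequence with the nuclear genome. On chromosome 1 of GRCm38, 7 pseudogenes between 24611535 and 24616197 copy mt-Co1, mt-Co2, mt-Atp6, mt-Co3, mt-Nd3, mt-Nd4l and mt-Nd4, and 97.2 to 100% of their 31-base words occur in mitochondrial genes. They took 17.95 to 19.73% of all FPKM in the 9 libraries, so reads were divided between each gene and its copy. In DOX against control Gm10222, the copy of mt-Nd4l (log2 change -0.41, SE 0.06, limma adjusted p = 0.015), Gm29216, that of mt-Co1 (log2 change -0.30, SE 0.06, limma adjusted p = 0.0306), and Gm28439, that of mt-Nd4 (log2 change -0.25, SE 0.06, limma adjusted p = 0.0442), were lower. Gm28661, the copy of mt-Co2, had a log2 change of -0.0011. Values of a gene and its copy are therefore not independent. Of the words in mt-Co2, mt-Atp6, mt-Co3, mt-Nd3 and mt-Nd4l, 98.1 to 99.9% also lie in a copy, against 62.8% for mt-Nd4, 29.6% for mt-Co1 and 7.47% for mt-Atp8. The genes mt-Nd1, mt-Nd2, mt-Nd5, mt-Nd6, mt-Cytb, the ribosomal and the transfer RNA genes share none with these 7 copies.

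Nuclear genes act on each step of mitochondrial RNA life, and 6 lists of them were read beside the 37 genes. For transcription, which needs the polymerase and its initiation factors, 1 of 10 tested genes fell in DOX against control and none rose. This was Tfb2m, the factor that opens the promoter, with 10.1, 10.6 and 11.2 FPKM in DOX, against 12.9, 13.8 and 13.6 FPKM in control (log2 change -0.31, SE 0.07, limma adjusted p = 0.0452). For stabilisation and decay, 1 of 16 fell and none rose, namely Pnpt1, the polynucleotide phosphorylase of the degrading complex, with 4.34, 3.48 and 3.91 FPKM in DOX, against 5.73, 5.64 and 4.98 FPKM in control (log2 change -0.40, SE 0.09, limma adjusted p = 0.0443). Neither gene's groups overlapped, and the 2 calls were lost in 15 and 14 of the other settings tried. No gene was called among 12 for DNA maintenance and replication, 8 for cleavage and poly(A) addition, 16 for modification of transfer and ribosomal RNA and 23 aminoacyl-tRNA synthetases, where 1, 2, 1 and 3 genes had an unadjusted limma p under 0.05, beside 2256 of the 12500 genes tested. List medians of log2 change lay between -0.09 and 0.01, against 0.04 over all genes.

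In TPTN against DOX, Pnpt1 was higher, with 5.27, 6.20 and 5.55 FPKM in TPTN, against the DOX values above (log2 change 0.44, SE 0.09, limma adjusted p = 0.0303). Hsd17b10, a subunit of the enzyme complex that cleaves transfer RNA 5′ ends, was lower, with 51.2, 61.8 and 64.7 FPKM in TPTN, against 71.0, 85.5 and 85.0 FPKM in DOX (log2 change -0.44, SE 0.10, limma adjusted p = 0.0452). The Hsd17b10 call was lost in 15 other settings, among them 4 scalings, no robust estimation and leaving out any single TPTN library, DOX replicate 2 or 3, or control replicate 1 or 3. The Pnpt1 call was lost in 8, among them leaving out any single TPTN library or DOX replicate 2 or 3. These were the calls in 1 of 16 and 1 of 8 tested genes of their lists, and the other 4 lists had none, with 0 to 4 genes each at an unadjusted limma p under 0.05, beside 20.6% of all genes. In TPTN against control none of the 6 lists had a call by limma, with 0 to 2 genes each at an unadjusted p under 0.05, beside 13.1% of all genes.

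The authors' deposited table carries its own p and q value per gene without naming the groups compared. Of the 37 genes, 21 were marked significant in the authors' deposited table, 5 messenger and 16 transfer RNA genes and 0 ribosomal RNA genes, beside 9.89% of all 29237 genes. A q value under 0.05 was given by the authors' deposited table to 13, beside 3.58% of all genes, and of these mt-Atp8 at a q of 0.0311 was the single messenger RNA gene, and mt-Tl1 had a q of 0.000318.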

How the data were processed

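Heart RNA in 9 libraries of 3 groups was sequenced as paired reads of 150 bases from polyadenylated RNA, per the labels' protocols. The authors deposited FPKM per gene, and per the submitters' processing notes they used cutadapt 1.9, HISAT2 2.0.4, StringTie 1.3.4d, DESeq2 and edgeR with GRCm38, without a stated order or parameters. The authors' deposited table also holds a p-value and a q-value per gene, and its header names no comparison. FPKM divides by the library total, so mitochondrial and other genes are tied to each other.

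Whole read counts could not be recovered, since 16.0 to 19.2% of the low values fell on whole multiples within 0.05, so depths are rough and the count model that the design held ready was not used. Log2(FPKM + 1) was fitted with limma 3.58.1 (R 4.3.3, data.table version 1.17.8; trend and robust empirical Bayes, 1 mean per group over 9 libraries, 6 residual degrees of freedom, two-sided, Benjamini-Hochberg adjustment over 12500 genes with a mean of at least 0.5 FPKM). The fit was tested on simulated data. Alternatives were a pseudocount of 0.1, no filter or a minimum mean of 1 FPKM, other scalings, no robust estimation, only the groups compared, a replicate block and leaving out each library.

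Values of every library are given for genes called in a comparison, for mt-Co2, mt-Atp6 and the ribosomal RNA genes, and ranges for others. Any transfer RNA gene beyond those called and the 2 highest and lowest was named after its values were seen. From lists of nuclear genes, up to 4 called genes were named, and copies were genes outside the mitochondrial genome with a mean of at least 100 FPKM and at least 50% of their 31-base words in mitochondrial genes. The members and lists were chosen with earlier results of these data known. Positions and sequences come from GRCm38 in GENCODE M21, read with Python 3.11.15, Biopython 1.88, numpy 2.4.6 and pandas 2.3.3. Plotting used matplotlib 3.10.9.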

Additional observations from a re-analysis of the deposited data

How the results depend on the processing

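Of DOX against control, the 12 calls were 0 with no filter on low values and 6 under quantile normalization (0.544% of all genes lower). They were 20 with scaling to the FPKM outside mitochondrial genes and their copies (1.67% of all genes lower, with a median of -0.07 over all genes). They were 0 with control replicate 3 and TPTN replicate 1 both left out, and 0 to 13 with single libraries left out. Leaving out these 2 libraries was chosen after seeing the data, because they deviated alike. Their deviations from the group means correlated at 0.398 over 12500 genes. Small non-coding RNA genes summed to 943 FPKM in TPTN replicate 1 and 657 FPKM in control replicate 3, against 139 to 447 FPKM in the others. Without both libraries, the median log2 change of transfer RNA genes in DOX against control was -0.50, against -0.53 with them. For TPTN against DOX, the 1 call was 2 with median ratios, with a minimum mean of 1 FPKM or with only the groups compared, 6 under quantile normalization, 7 with scaling to the FPKM outside mitochondrial genes and 10 with copies also left out. In these settings 0.71 to 4.34% of all genes were called higher. The count of calls rested on few genes in each. This count was 0 with no filter, no robust estimation, scaling to the messenger RNA sum, and without the 2 libraries, and 0 to 3 with single libraries left out. Of TPTN against control, 0 calls became 0 to 3 with single libraries left out and stayed 0 otherwise. Among genes called on either scale, signs in DOX against control turned for Gm28439 under quantile normalization (0.11), and for mt-Nd1 (0.14) and mt-Co2 (0.23) with scaling to the messenger RNA sum. Counting uncalled genes too, signs turned for 10 of the 37 with that scaling, 6 under quantile normalization and 2 with median ratios. Replicate numbers did not pair the samples, as same-numbered samples correlated at -0.261 to 0.0233, and the replicate block gave 8 calls for DOX against control, 0 for TPTN against DOX and 0 for TPTN against control. By gene, the calls in DOX against control were lost in 5 settings for mt-Tl1 and mt-Tm and in 14 for mt-Nd6 and mt-Th. Apart from the construction of each setting, the cause was not tested. With 3 libraries a group, standard errors of 0.22 to 0.52 (log2) limited what could be detected in transfer RNA genes at low FPKM.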
